A study of Mus musculus with 12 samples.

Results

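Transcripts of 40 genes of G2 and mitosis were measured by RNA sequencing in 12 libraries of mouse 4T1 cells, a line from a mammary tumour that forms lung metastases. The genes were chosen by name, as genes of mitotic entry, the spindle and cytokinesis, many of them bound by the B-Myb-MuvB complex, together with Foxm1, Lin9 and Lin54, which regulate their transcription. All 40 were found by their Ensembl identifiers among the 22880 features of the count table, and all 40 were among the 11291 genes kept for testing by the low-count filter. The libraries fall into 4 groups of 3. MYBup cells had been transfected with pcDNA3-mMyb, a plasmid that expresses mouse Myb, which encodes the transcription factor c-Myb, and mock cells with the empty plasmid pcDNA3.1. The lung3 cells were selected by 3 rounds of lung passage in mice, carried no plasmid and have a high lung metastatic activity per the labels. The wt cells were neither transfected nor passaged; the labels give low activity for MYBup and normal activity for mock and wt. Plasmids of the pcDNA3 series drive their insert from a constitutive viral promoter, and the counts of Myb do not separate plasmid from endogenous transcripts. The labels do not say whether the plasmid lines are pools or single clones, nor whether libraries of 1 group are separate cultures, so every p-value measures library-to-library spread that may be technical. The study asked which genes move in opposite directions in MYBup against mock and in lung3 against wt.

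Genes of G2 and mitosis are switched on late in the cell cycle. In quiescent and early G1 cells the DREAM complex, made of the MuvB core (Lin9, Lin37, Lin52, Lin54 and Rbbp4) with an E2F and a pocket protein, holds them off through a promoter element called CHR. In S and G2 phase the same core joins B-Myb, the product of Mybl2, and then recruits FoxM1, and both activate the genes. B-Myb belongs to the same family as c-Myb and binds a similar DNA motif. In tumour cells the transcripts of these genes usually follow the share of dividing cells.

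Promoter sequences are shown because the CHR hexamers TTTGAA and TTCGAA are what most of the genes share in their DNA. RefSeq sequences of build GRCm38.p6, from 250 bases before to 50 bases after each start, were matched for 32 of the 40 genes, and not for Aurkb, Ccna2, Cdc25c, Dlgap5, Foxm1, Kif20a, Lin9 and Tpx2. On either strand, TTTGAA stood in 23 of the 32 (71.9%, against 20.2% of 27025 genes with a sequence) and TTCGAA in 5 (15.6%, against 1.8%). At least 1 of these hexamers stood in 25 of 32 (78.1%, against 21.7%), and in 24 of 32 its first base lay between base -60 and base 50, counting the start as base 1 with no base 0 (75%, against 6.79%). CCAAT, the core of the NF-Y site, stood in 27 of 32 (84.4%, against 41.1%), and together with a hexamer in 23 (71.9%, against 8.61%). The c-Myb and B-Myb core motif AACGG stood in 12 of 32 (37.5%, against 19.6%). The E2F-type motif TTCCCGC stood in 0 of 32 (5.29% of all genes) and TTGGCGC in 3 (Ccnb1, Cdk1 and Ect2; 9.38%, against 2.85%). TTGGCGC read on the opposite strand can overlap CCAAT, as it does in Ccnb1. A match describes the letters of these windows and no binding. Many of the genes are bound by the B-Myb-MuvB complex, so a raised share of CHR hexamers is partly built into the choice of genes. The 30 bases around the hexamer, in capitals, are given for 7 genes that fell in MYBup against mock, and for Plk1, a classic target that was not called. TTCAAA in capitals is TTTGAA read on the opposite strand, and the Anln window holds a further TTTGAA in lower case.

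Cdc25b (chr2:131186943-131186972, plus strand): ccgctgttatttTTCGAAtatataaggagg
Ttk (chr9:83834684-83834713, plus strand): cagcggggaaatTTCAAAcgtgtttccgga
Kif23 (chr9:61946780-61946809, minus strand): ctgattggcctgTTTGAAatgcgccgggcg
Hmmr (chr11:40733412-40733441, minus strand): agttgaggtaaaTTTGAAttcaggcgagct
Prc1 (chr7:80294434-80294463, plus strand): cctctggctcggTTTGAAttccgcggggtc
Anln (chr9:22389168-22389197, minus strand): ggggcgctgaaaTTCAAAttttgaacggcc
Lin54 (chr5:100498527-100498556, minus strand): aatggcggatctTTCGAAatacaatcccgg
Plk1 (chr7:122159453-122159482, plus strand): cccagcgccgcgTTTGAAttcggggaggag

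The first base of these hexamers lay between base -5 in Prc1 and base 31 in Plk1 on the same count. The Lin54 window belongs to an alternative start inside the gene. The 250 bases before the outer start of Lin54 hold no hexamer and no CCAAT, and TTTGAA stands after that start, at base 41. A pair of longer upstream stretches shows the contrast between a gene with CCAAT and the hexamer and a gene with CCAAT alone, again with the motifs in capitals. Cdc20 is the activator of the anaphase-promoting complex and Ccnb1 the gene of cyclin B1. Neither was called in MYBup against mock. The Ccnb1 stretch ends before a further CCAAT at base -67.

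Cdc20 (chr4:118437353-118437593, minus strand, bases -250 to -10): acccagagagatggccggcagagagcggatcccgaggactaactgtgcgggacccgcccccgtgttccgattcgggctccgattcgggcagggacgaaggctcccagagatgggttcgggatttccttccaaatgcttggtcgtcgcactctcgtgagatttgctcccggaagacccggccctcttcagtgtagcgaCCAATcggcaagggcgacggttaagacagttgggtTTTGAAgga
Ccnb1 (chr13:100786571-100786736, minus strand, bases -250 to -85): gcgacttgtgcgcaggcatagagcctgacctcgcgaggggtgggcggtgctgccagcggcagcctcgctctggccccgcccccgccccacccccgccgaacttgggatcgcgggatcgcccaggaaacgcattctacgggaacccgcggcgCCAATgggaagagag

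Genes with and without a hexamer overlapped in their response. In MYBup against mock the 25 genes with a hexamer had log2 fold changes of -0.47 to 0.29 with a median of -0.15, and the 7 without of -0.67 to 0.25 with a median of -0.12. Of the 25 genes 7 were called lower and 1 higher, and of the 7 genes 1, Mad2l1, was called lower. Of all tested genes 12.6% were called lower and 14.3% higher, and sets this small set little against those shares. In lung3 against wt the medians were -0.04 and 0.04, with none called in either set, against 5.36% of all tested genes. The 7 genes without the hexamer are Birc5, Ccnb1, Cenpe, Cks2, Mad2l1, Nek2 and Nusap1. The RefSeq start used for Mad2l1 lies upstream of the gene start given further below. Its window ends before that gene start, and the bases around it were not searched.

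The shallowest library was lung3 replicate 2, with 8912989 counts, and the deepest wt replicate 2, with 24745660. Levels are given as CPM, counts scaled to library size. Myb stood at 39.3, 42.9 and 39.8 CPM in MYBup, 5.17, 4.49 and 6.80 in mock, 3.13, 2.77 and 2.22 in lung3 and 4.27, 4.96 and 5.75 in wt libraries, so all MYBup libraries were far above the others. All 8 mammary epithelial markers (such as Krt8, Epcam and Cdh1) reached 1 CPM, with sums of 2601 to 3427 CPM per library. Of 9 leukocyte and 6 endothelial markers 0 reached 1 CPM. Of 7 lung epithelial markers Foxj1 alone did, while Sftpc, Sftpb, Sftpa1 and Nkx2-1 were at 0 in all libraries. Of 6 fibroblast markers only Pdgfra did. The 6 summed to 38.8 to 48.6 CPM in MYBup, 36.9 to 49.0 in mock, 15.9 to 22.0 in lung3 and 21.7 to 30.2 in wt, with Lum and Thy1 at 0 throughout, and their part in the results was not tested.

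The genes were expressed in every library, with levels that spanned a wide range. Per exon length, as RPKM, the CPM per kilobase of exon, wt means ran from 10.9 for Lin54, the DNA-binding subunit of MuvB, to 262 for Top2a, which untangles chromosomes before anaphase. Among CDK1, cyclins and their regulators the highest wt mean was that of Ccna2 (cyclin A2, 155 RPKM) and the lowest that of Cdc25c, a phosphatase that activates CDK1 (18.9 RPKM). Among mitotic kinases Aurka (64.5 RPKM) stood highest and Nek2 (40.9 RPKM) lowest. In the checkpoint and anaphase group Cdc20 (110.1 RPKM) stood highest and Mad2l1 (15.0 RPKM) lowest. In the centromere and passenger group Cenpa, the centromeric histone, led with 87.3 RPKM and Cenpf, a large kinetochore protein, came last with 25.5. Among kinesins and spindle genes Tpx2, an activator of Aurora A, had 65.7 RPKM and Dlgap5, a microtubule-binding protein, 18.7. In the cytokinesis group Anln, the actin-binding protein anillin, had 212 RPKM and Racgap1, a subunit of centralspindlin, 80.3. Cdca3, which triggers mitotic entry, had 27.5 RPKM, and Foxm1 39.0 and Lin9 12.7. The exon length of Mad2l1 used here, 8032 bases, merges the exons of its transcripts in the basic set of the annotation, and the part of this in its low RPKM was not tested.

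The 40 genes together took the smallest share of reads in MYBup cells. Their summed level was 8029, 8293 and 8238 CPM in MYBup libraries, 9079, 8702 and 8965 CPM in mock libraries, 8762, 9309 and 8895 CPM in lung3 libraries and 9164, 9160 and 9166 CPM in wt libraries. The 3 MYBup sums lay below all others. The MYBup mean was the lowest of the 4 group means for 19 of the 40 genes, and the mock mean the highest for 18. In bulk RNA, fewer cells in G2 and mitosis and less of these RNAs per such cell cannot be told apart.

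**Figure D1:**
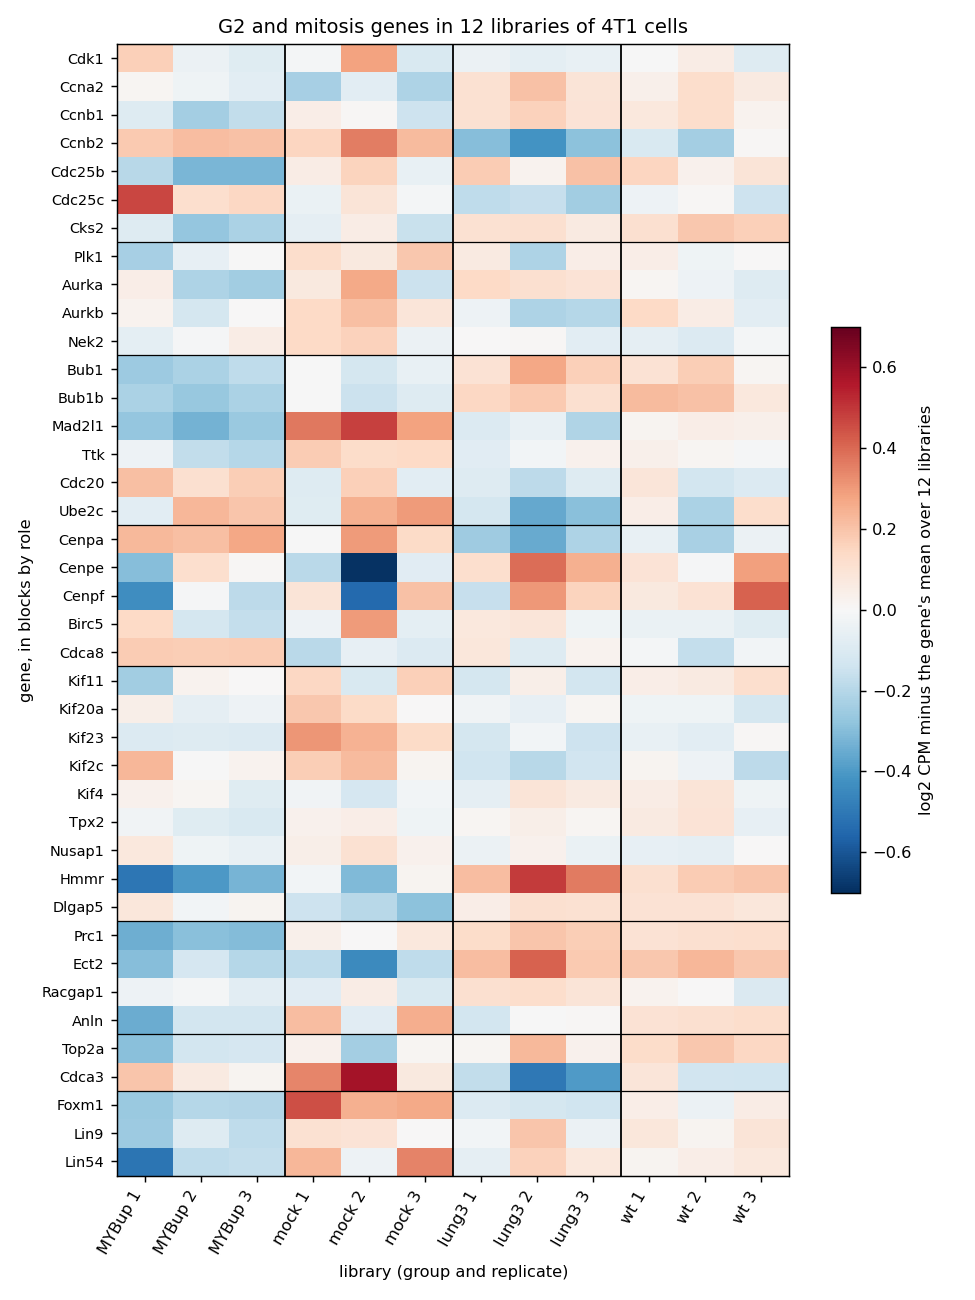
Level of each of the 40 genes (rows, in blocks by role) in each of the 12 libraries (columns, by group and replicate), as log2 CPM minus the mean of that gene over the 12 libraries. Red is above and blue below that mean. Foxm1, Mad2l1 and Lin54 are blue in MYBup and red in most mock libraries, and mock replicate 2 stands apart from its group in Cenpe and Cenpf.

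Some of the spread is between libraries of the same group. Mock replicate 2 was the highest of its group for 19 genes and the lowest for 15. Lung3 replicate 2, the shallowest library, was the highest of its group for 24. For Cenpe, a kinesin of the kinetochore, the values were 177, 237 and 219 CPM in MYBup, 191, 135 and 206 in mock, 236, 285 and 258 in lung3 and 233, 217 and 265 in wt libraries. For Cenpf they were 182, 244 and 217 CPM in MYBup, 262, 169 and 284 in mock, 220.5, 304 and 274 in lung3 and 258, 264 and 328 in wt libraries. In both genes mock replicate 2 was below the other mock libraries. Among the 20 genes with the longer exons (3402 to 11130 bases), the median deviation of mock replicate 2 from its group's mean log2 CPM was -0.07, and among the 20 with the shorter exons (692 to 3398 bases) it was 0.08. In lung3 replicate 2 the medians were 0.06 and -0.02. What part this has in the results was not tested, beyond the fits without each library.

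Comparing MYBup with mock cells asked which of these genes follow a raised level of Myb. Most values lay slightly lower in MYBup. Foxm1, the MuvB genes Lin9 and Lin54, and the checkpoint gene Mad2l1 fell, as did Cdc25b, Ttk, Kif23, Hmmr, Prc1 and Anln. Cdca8 and Dlgap5 rose. The falls were modest, between 0.24 and 0.67 on the log2 scale. In the edgeR quasi-likelihood test 12 of 40 genes were called at an adjusted p of 0.05 or less, against 26.9% of all tested genes. The 10 lower and 2 higher compare with 12.6% lower and 14.3% higher of all genes. The median log2 fold change was -0.13 over the 40 genes and 0.00 over all genes. It was below 0 for 30 of 40 genes (75%), against 49.8% of all genes. CPM values of the MYBup and mock libraries did not overlap for 3 genes that were higher and 14 that were lower in MYBup (21.8% and 18.8% of all genes). With each library centred per chromosome, 7 genes were called, 2 higher and 5 lower, of which 6 were among the 12. That fit called 20.9% of all genes.

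**Figure D2:**
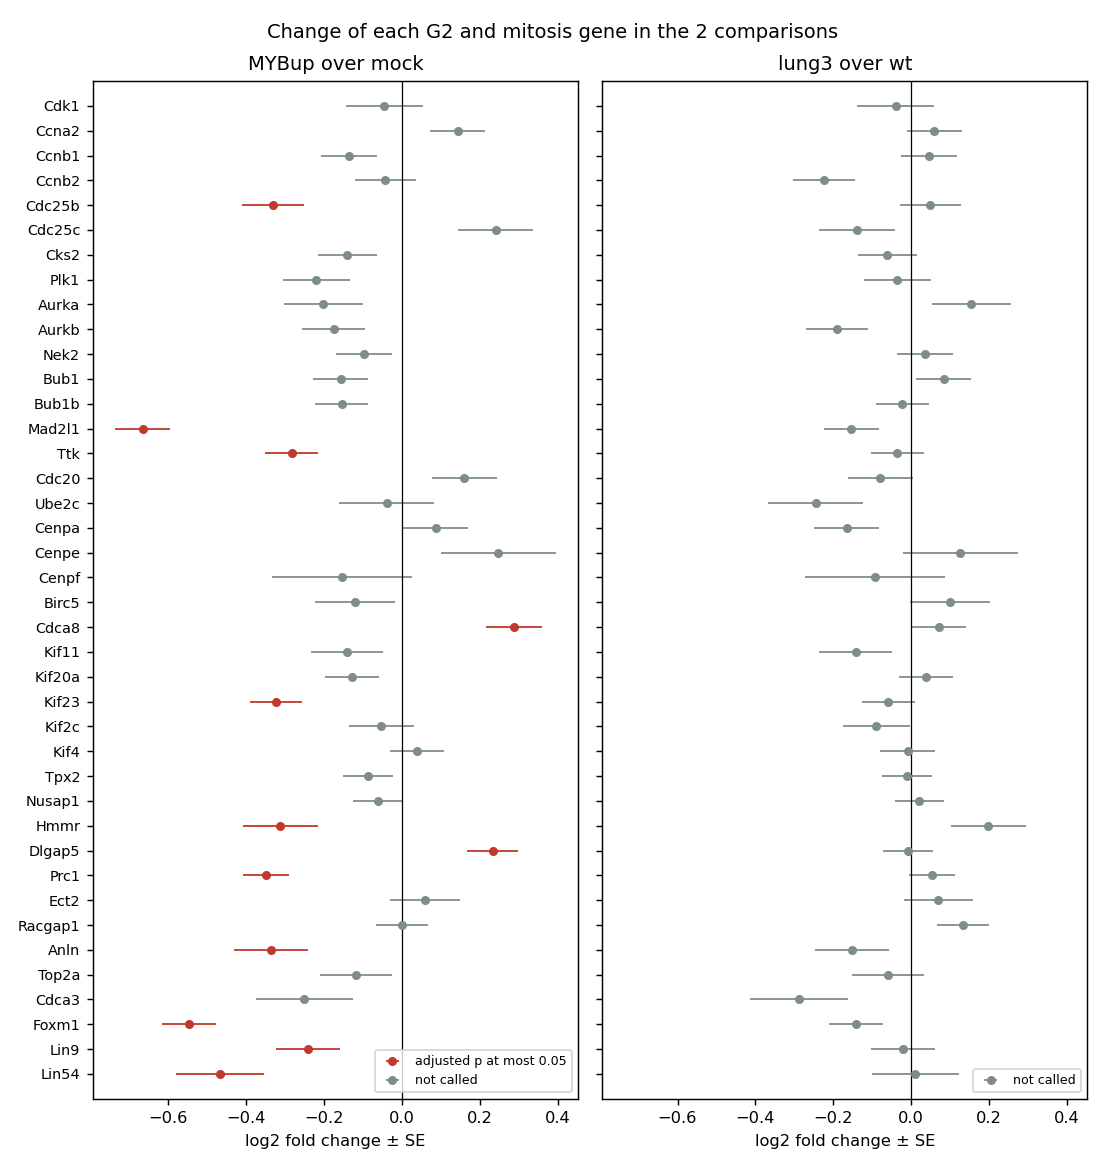
Log2 fold change with its SE (edgeR, n = 3 libraries per group) for each of the 40 genes, MYBup over mock on the left and lung3 over wt on the right; red marks an adjusted p of 0.05 or less. On the left 10 genes lie lower and 2 higher in MYBup with that mark, and on the right none has it.

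The 3 regulators among the 40 genes, Foxm1, Lin54 and Lin9, fell in MYBup. The other MuvB core genes Lin37, Lin52 and Rbbp4 had log2 fold changes of -0.06, -0.18 and 0.13, and Mybl2 of 0.03, and none of these 4 was called. Foxm1 (ENSMUSG00000001517, chr6:128362967-128376146), the forkhead factor that activates G2 and mitosis genes, had 149.7, 156 and 155 CPM in MYBup, 245, 213 and 215 in mock, 167, 164 and 163 in lung3 and 185, 174 and 186 in wt libraries. The 3 MYBup libraries lay below every other library and the 3 mock libraries above every other. The log2 fold change against mock was -0.55 (SE 0.07, adjusted p = 0.000109). Lin54 (chr5:100441918-100500639), the MuvB subunit that reads the CHR element, had 36.4, 45.8 and 46.1 CPM in MYBup, 61.0, 50.6 and 66.0 in mock, 49.5, 58.0 and 54.6 in lung3 and 52.6, 53.4 and 54.6 in wt libraries. All MYBup values lay below all other values, by a small margin between MYBup replicate 3 and lung3 replicate 1. Its log2 fold change was -0.47 (SE 0.11, adjusted p = 0.00758). Lin9, the MuvB scaffold, had 32.1, 36.0 and 33.8 CPM in MYBup, 41.3, 40.9 and 38.3 in mock, 37.8, 43.8 and 37.2 in lung3 and 40.4, 38.9 and 40.8 in wt libraries. MYBup values again lay below all others, and the log2 fold change was -0.24 (SE 0.08, adjusted p = 0.045). Exons of Foxm1 overlap exons of Tex52 by 144 bases and of Gm44596 by 97, all on 1 strand, so reads in those bases cannot be told apart by strand. The Lin9 call ended in 12 of 20 alternatives, among them the fits without mock replicate 1 or 2 and those that left out each MYBup or each wt library in turn (adjusted p up to 0.18).

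**Figure D3:**
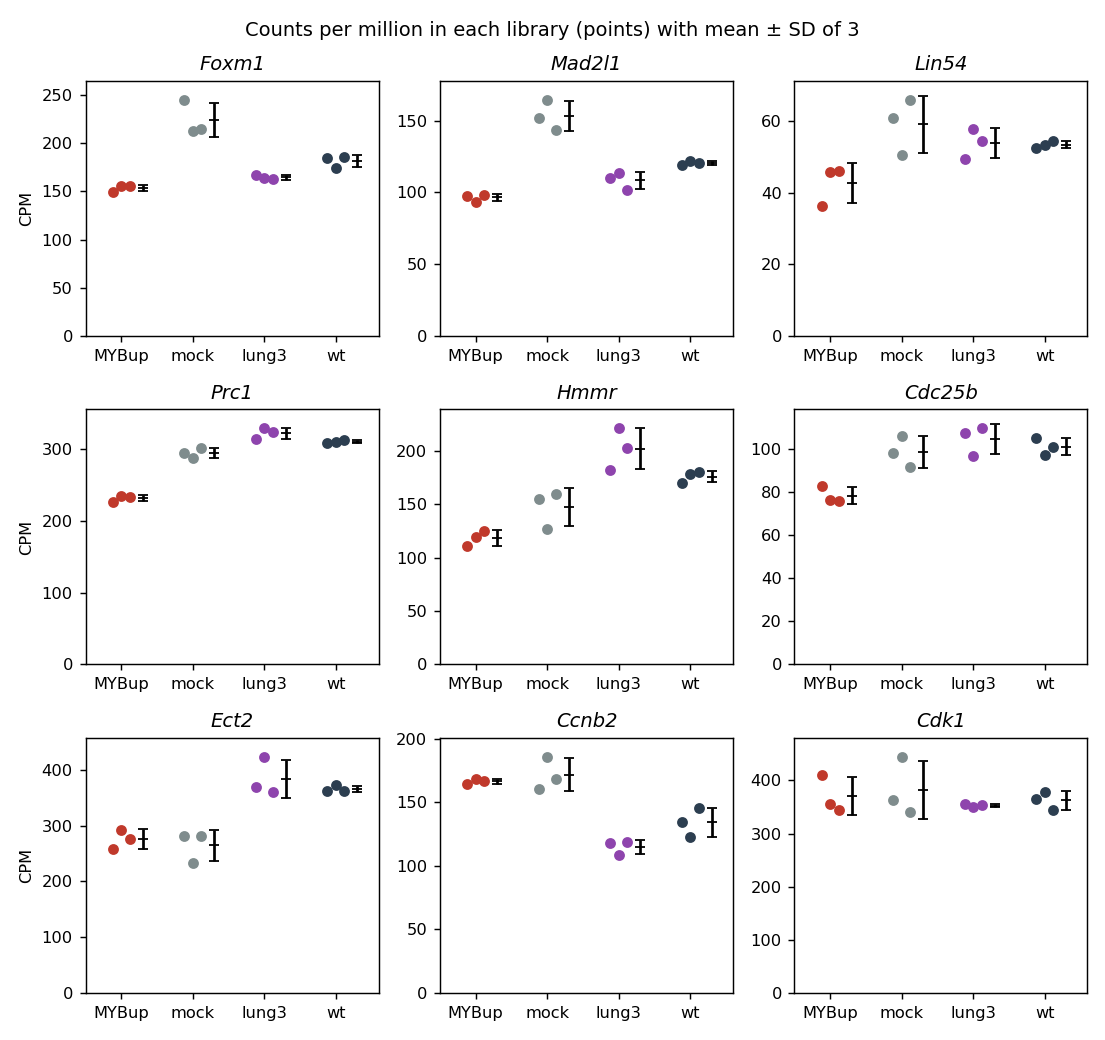
CPM (linear axis from 0) of 9 of the genes in each library (points) with the group mean ± SD of 3 libraries (bars), groups in the order MYBup, mock, lung3 and wt. The MYBup points of Foxm1, Mad2l1, Lin54, Prc1, Hmmr and Cdc25b lie below the points of the other groups, those of Ect2 overlap mock, and those of Cdk1 overlap all groups.

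Of the 7 genes of CDK1, cyclins and their regulators 1 fell. Cdk1, the kinase that drives mitosis, had 411, 356 and 344 CPM in MYBup, 363, 444 and 339.5 in mock, 355, 349 and 353 in lung3 and 365, 379 and 344 in wt libraries, and all 4 groups overlapped. Ccnb1, its main partner, had 210.2, 189.6 and 198 CPM in MYBup, 231, 225 and 202 in mock, 240.1, 249.99 and 239 in lung3 and 235, 244 and 228 in wt libraries. MYBup and mock overlapped, with a log2 change of -0.14 (SE 0.07, adjusted p = 0.176). Pseudogenes that match Ccnb1 at over 95% identity lie in the genome and not in the count table, so reads of the gene could have been lost to them. The gene that fell was Cdc25b (chr2:131186949-131198497), a phosphatase that activates CDK1, with 82.9, 76.1 and 75.9 CPM in MYBup, 98.2, 106 and 91.3 in mock, 107, 96.4 and 109 in lung3 and 105, 97.0 and 101 in wt libraries. Its MYBup values lay below all others, and the log2 fold change was -0.33 (SE 0.08, adjusted p = 0.00764). Its exons overlap those of Spef1 by 92 bases. The related Cdc25c had 52.9, 41.5 and 42.1 CPM in MYBup, 36.9, 40.6 and 37.9 in mock, 33.7, 34.1 and 32.2 in lung3 and 37.2, 38.4 and 34.5 in wt libraries. MYBup values lay above mock values, with a log2 change of 0.24 (SE 0.10, adjusted p = 0.08). Among the alternatives, that gene passed the test in the fit with each library centred per chromosome, and its exons overlap those of Gm3550 by 623 bases. Ccna2, Ccnb2 and the CDK1-binding subunit gene Cks2 had log2 fold changes of 0.14, -0.04 and -0.14 and were not called.

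Of the 4 mitotic kinases 0 were called in the main fit. Plk1, which drives mitotic entry and spindle assembly, had 109, 123 and 128 CPM in MYBup, 139.6, 135 and 146 in mock, 134, 111 and 132 in lung3 and 133, 126 and 129 in wt libraries. MYBup values lay below mock values but overlapped wt, with a log2 change of -0.22 (SE 0.09, adjusted p = 0.0728). Among the alternatives, Plk1 passed the threshold with DESeq2 (adjusted p = 0.0468) and in the edgeR fit without lung3 replicate 2 (adjusted p = 0.0404). Aurkb, the kinase of the chromosomal passenger complex, had 98.5, 89.1 and 97.2 CPM in MYBup and 107, 112 and 103 CPM in mock libraries, again without overlap (-0.18, SE 0.08, adjusted p = 0.121). The log2 fold changes of Aurka, which matures centrosomes, and Nek2, which separates them, were -0.20 and -0.10. Aurka passed in the edgeR fits without mock replicate 3 (adjusted p = 0.0383) and without MYBup replicate 1 (adjusted p = 0.0484).

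In the spindle checkpoint 2 of 6 genes of the checkpoint and anaphase group fell. Mad2l1 (ENSMUSG00000029910, chr6:66535390-66547220), the checkpoint protein Mad2 that holds Cdc20 inactive, had 97.6, 93.6 and 98.4 CPM in MYBup, 152, 164 and 143 in mock, 110.1, 114 and 102 in lung3 and 119, 122 and 121 in wt libraries. Mock libraries stood above and MYBup libraries below all others. Its log2 change of -0.67 (SE 0.07, adjusted p = 2.79e-05) was the largest in size among the 40 genes in this comparison. A pseudogene, Gm42430, matches Mad2l1 at 95.4% over 454 bases. Ttk, the kinase Mps1 that starts the checkpoint, had 83.1, 75.5 and 74.0 CPM in MYBup, 96.2, 93.0 and 93.5 in mock, 80.4, 83.8 and 86.9 in lung3 and 87.2, 85.8 and 84.5 in wt libraries. MYBup and mock did not overlap, while MYBup replicate 1 lay among the lung3 values. Its log2 fold change was -0.28 (SE 0.07, adjusted p = 0.00762), and the call ended without MYBup replicate 3 (adjusted p up to 0.11 over the alternatives). The kinase Bub1 (-0.16), the checkpoint protein BubR1 encoded by Bub1b (-0.15), Cdc20 (0.16) and Ube2c, the ubiquitin-conjugating enzyme of the anaphase-promoting complex (-0.04), were not called.

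In the centromere and passenger group 1 of 5 genes rose. Cdca8, which encodes borealin of the passenger complex (chr4:124918465-124939311), had 133, 132 and 133 CPM in MYBup, 103, 113 and 110.2 in mock, 124, 110.4 and 119 in lung3 and 117, 105 and 116 in wt libraries. MYBup libraries lay above all others, with a log2 change of 0.29 (SE 0.07, adjusted p = 0.00944), and exons overlap those of 9930104L06Rik by 232 bases. Cenpa (0.09), Cenpe (0.25), Cenpf (-0.15) and Birc5, which encodes the passenger subunit survivin (-0.12), were not called.

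Among kinesins and spindle genes 2 of 9 fell and 1 rose. Kif23, the motor of centralspindlin, had 214, 215 and 214 CPM in MYBup, 283, 271 and 251 in mock, 210.2, 225 and 207 in lung3 and 221, 218 and 229.8 in wt libraries. Mock stood above all other groups, which lay close together, and the log2 fold change was -0.32 (SE 0.07, adjusted p = 0.00325). Hmmr, a spindle protein that binds hyaluronan and microtubules, had 111, 119 and 126 CPM in MYBup, 155, 127 and 159.6 in mock, 183, 221 and 203 in lung3 and 170.1, 178 and 180.2 in wt libraries. MYBup lay just below mock, with mock replicate 2 close to MYBup replicate 3. The log2 fold change was -0.31 (SE 0.10, adjusted p = 0.0285), and the call ended in the separate fits without mock replicate 1, mock replicate 3, MYBup replicate 1 and MYBup replicate 2 (adjusted p up to 0.12 over all alternatives). Dlgap5 had 85.6, 79.9 and 82.3 CPM in MYBup, 73.2, 71.0 and 66.5 in mock, 83.8, 87.5 and 87.2 in lung3 and 86.9, 87.2 and 85.8 in wt libraries. Mock stood below all other groups, with a log2 change of 0.23 (SE 0.07, adjusted p = 0.0187). Its call ended in the fits without mock replicate 3 and without MYBup replicates 1 or 3, and the direction turned in the chromosome-centred fit (-0.05, adjusted p = 0.60). The motor Kif11, which separates spindle poles (-0.14), Kif20a (-0.13) and Kif4 (0.04), which act on the central spindle, the microtubule depolymerase Kif2c (-0.05), Tpx2 (-0.09) and the microtubule-bundling gene Nusap1 (-0.06) were not called.

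In the cytokinesis group 2 of 4 genes fell. Prc1, which bundles the microtubules of the central spindle (chr7:80294450-80316259), had 227, 235 and 233 CPM in MYBup, 295, 288 and 302 in mock, 314, 329 and 323 in lung3 and 308, 311 and 312 in wt libraries. MYBup lay below all other libraries, with a log2 change of -0.35 (SE 0.06, adjusted p = 0.00086). The exons of Prc1 overlap those of Rccd1 on the opposite strand by 911 bases. Anln had 709, 824 and 824 CPM in MYBup, 1045, 852 and 1076 in mock, 826, 901 and 907 in lung3 and 967, 975.2 and 982 in wt libraries. Mock replicate 2 and lung3 replicate 1 came close to the MYBup values. Its log2 fold change was -0.34 (SE 0.10, adjusted p = 0.0194), and the call ended in the separate fits without mock replicate 1, mock replicate 3 and MYBup replicate 1 (adjusted p up to 0.14 over all alternatives). Ect2, the exchange factor that activates RhoA at the division plane (0.06), and Racgap1 (0.00) were not called, nor were Top2a (-0.12) and Cdca3 (-0.25). The log2 fold changes of the 28 genes that were not called lay between -0.25 for Cdca3 and 0.25 for Cenpe. Of these, Cdc20 passed the threshold without mock replicate 2 and Cdca3 without mock replicate 3.

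The chromosomes that carry these genes also differed as wholes between the plasmid lines. The median log2 fold change of all tested genes in MYBup against mock was -0.14 on chromosome 6, which carries Foxm1 and Mad2l1, and -0.18 on chromosome 7, which carries Prc1. It was -0.11 on chromosome 9, with Anln, Kif23 and Ttk, 0.09 on chromosome 4, with Cdca8, and 0.30 on chromosome 14, with Dlgap5. After centring, Mad2l1 stood at -0.52 (adjusted p = 0.000144) and Foxm1 at -0.40 (adjusted p = 0.00117). Lin54 stood at -0.42 (adjusted p = 0.0165), Cdc25b at -0.28 (adjusted p = 0.021), Lin9 at -0.28 (adjusted p = 0.0206) and Cdca8 at 0.20 (adjusted p = 0.0471), and all 6 were still called. The calls of Ttk, Kif23, Hmmr, Prc1 and Anln ended, with values of -0.17, -0.21, -0.26, -0.17 and -0.22. Whether copy number has a part in these shifts was not tested.

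**Figure D4:**
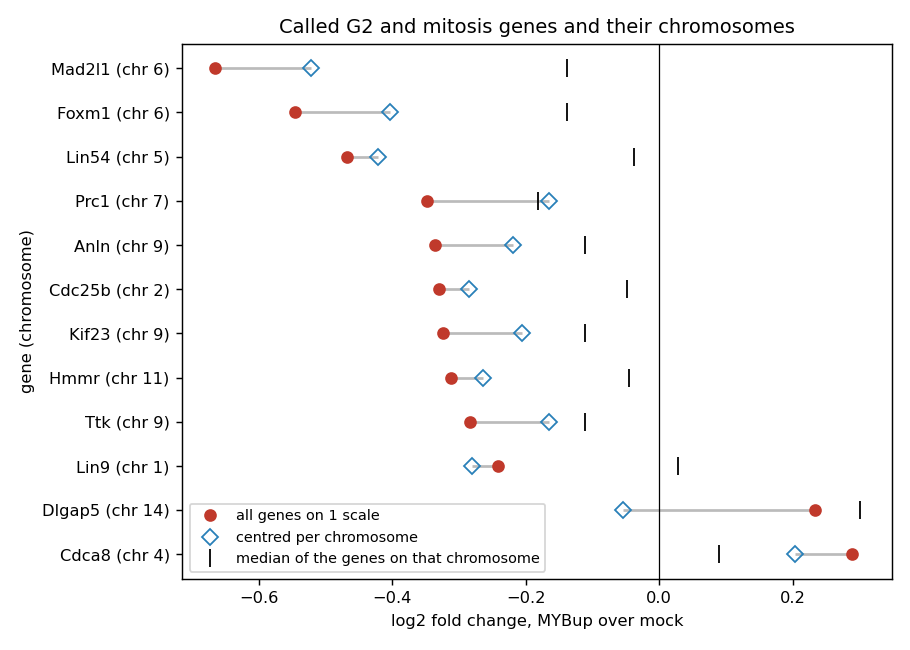
Log2 fold change, MYBup over mock, of the 12 called genes before (filled circles) and after (open diamonds) each library was centred per chromosome; black ticks mark the median of all tested genes on the chromosome named beside the gene. Mad2l1 and Foxm1 keep most of their fall, Prc1 moves to -0.17, and Dlgap5 crosses 0.

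Setting the plasmid lines against wt showed where each line stood. These comparisons share libraries with MYBup against mock, so the values are only set side by side. In MYBup against wt 18 of 40 genes were called, 4 higher and 14 lower, against 38.2% of all genes (19.4% higher, 18.7% lower). In mock against wt 13 were called, 6 higher and 7 lower, against 35.9% (18% higher, 17.9% lower). The median log2 fold change of the 40 genes was -0.10 in MYBup and 0.04 in mock. CPM values did not overlap for 5 higher and 20 lower genes in MYBup against wt (27.3% and 28.3% of all genes). In mock against wt they did not overlap for 9 higher and 10 lower (23.2% and 23.7% of all genes). With each library centred per chromosome, mock against wt had 5 calls, 3 higher and 2 lower, and MYBup against wt had 16, 3 higher and 13 lower. That fit called 3373 of all 11291 tested genes in mock against wt and 4129 in MYBup against wt.

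Of the 10 genes that fell against mock 8 had calls below wt in MYBup as well, the exceptions being Ttk (-0.15, SE 0.07, adjusted p = 0.1) and Kif23 (-0.05, SE 0.07, adjusted p = 0.549). Foxm1 differed from wt by -0.24 (SE 0.07, adjusted p = 0.0148) and Mad2l1 by -0.32 (SE 0.07, adjusted p = 0.00342). Both of these were higher in mock than in wt, by 0.30 (SE 0.07, adjusted p = 0.00423) and 0.35 (SE 0.07, adjusted p = 0.00201). Kif23 was too, by 0.27 (SE 0.07, adjusted p = 0.00712), and in all 3 genes the mock mean lay above the wt mean. With each library centred per chromosome, Mad2l1 kept this call at 0.19 (adjusted p = 0.0474). The calls of Foxm1 and Kif23 in mock ended there, at 0.15 (adjusted p = 0.124) and 0.16 (adjusted p = 0.108). For 5 others mock was not called against wt. Prc1 differed from wt by -0.42 (SE 0.06, adjusted p = 0.000153) in MYBup and by -0.07 (SE 0.06, adjusted p = 0.355) in mock. Cdc25b differed by -0.37 (SE 0.08, adjusted p = 0.00289) and -0.04 (SE 0.08, adjusted p = 0.742), Lin54 by -0.32 (SE 0.11, adjusted p = 0.036) and 0.15 (SE 0.11, adjusted p = 0.324), Lin9 by -0.24 (SE 0.08, adjusted p = 0.0368) and 0.01 (SE 0.08, adjusted p = 0.964), and Anln by -0.31 (SE 0.10, adjusted p = 0.0204) and 0.02 (SE 0.10, adjusted p = 0.864). Hmmr was lower in both lines, with log2 fold changes of -0.57 (SE 0.10, adjusted p = 0.000561) in MYBup and -0.26 (SE 0.10, adjusted p = 0.0494) in mock. The centred value of Hmmr in mock was -0.24 (adjusted p = 0.1). Cdca8 was higher than wt in MYBup (0.24, SE 0.07, adjusted p = 0.0179) and not called in mock (-0.05, SE 0.07, adjusted p = 0.626). Its call in MYBup ended in the centred fit, at 0.05 (adjusted p = 0.582), where the median of chromosome 4 was 0.18 before centring.

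A further 9 genes differed between MYBup and wt without a call between MYBup and mock. Ect2 had 259, 293 and 276 CPM in MYBup, 281, 233 and 281 in mock, 369, 423 and 361 in lung3 and 362, 373 and 363 in wt libraries. Both plasmid lines lay below lung3 and wt without overlap, with log2 fold changes of -0.41 (SE 0.09, adjusted p = 0.00335) in MYBup and -0.47 (SE 0.09, adjusted p = 0.00142) in mock against wt. Bub1b had 192, 186 and 192 CPM in MYBup, 223, 201 and 210.2 in mock, 247, 253 and 242 in lung3 and 261, 258 and 235 in wt libraries, with log2 changes against wt of -0.40 (SE 0.07, adjusted p = 0.000527) in MYBup and -0.25 (SE 0.07, adjusted p = 0.0114) in mock. Bub1 had 137, 139.9 and 144 CPM in MYBup, 163, 149.9 and 157 in mock, 175, 197 and 183 in lung3 and 175, 184 and 164 in wt libraries, with log2 changes against wt of -0.31 (SE 0.07, adjusted p = 0.00393) in MYBup and -0.16 (SE 0.07, adjusted p = 0.1) in mock. The plasmid lines held the lowest values of both genes. Cks2 had 56.4, 49.8 and 51.5 CPM in MYBup, 57.5, 62.2 and 53.9 in mock, 64.7, 64.9 and 62.7 in lung3 and 64.8, 68.4 and 67.4 in wt libraries, with log2 changes against wt of -0.35 (SE 0.08, adjusted p = 0.0031) in MYBup and -0.21 (SE 0.08, adjusted p = 0.0444) in mock. Top2a had 1002, 1126 and 1131 CPM in MYBup, 1256, 1041 and 1241 in mock, 1241, 1439.9 and 1256 in lung3 and 1343, 1399.8 and 1360.3 in wt libraries, with log2 changes against wt of -0.33 (SE 0.09, adjusted p = 0.0126) in MYBup and -0.21 (SE 0.09, adjusted p = 0.0872) in mock. Ccnb1 completed the lower genes with log2 changes of -0.24 (SE 0.07, adjusted p = 0.018) in MYBup and -0.10 (SE 0.07, adjusted p = 0.281) in mock. In all of these MYBup values lay below wt values without overlap. Reads of Cks2 may be shared with pseudogenes of near-identical sequence, and exons of Top2a overlap those of Gm23451 by 122 bases. In the centred fit the call of Ccnb1 in MYBup ended, at -0.12 (adjusted p = 0.225), as did that of Cks2 in mock, at -0.14 (adjusted p = 0.166), and the value of Cks2 in MYBup became -0.23 (adjusted p = 0.031).

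Ccnb2, Cdc25c and Cenpa were the higher ones. Ccnb2, the gene of cyclin B2, had 164, 168 and 167 CPM in MYBup, 161, 186 and 169 in mock, 118, 108 and 119 in lung3 and 134, 123 and 146 in wt libraries. Both plasmid lines lay above wt, and lung3 below it, without overlap. The log2 fold changes against wt were 0.31 (SE 0.08, adjusted p = 0.0079) in MYBup and 0.35 (SE 0.08, adjusted p = 0.0038) in mock. Cenpa had 180.1, 178 and 186 CPM in MYBup, 154, 189.5 and 169 in mock, 129.5, 121 and 133 in lung3 and 148, 132 and 149.5 in wt libraries, with log2 changes against wt of 0.34 (SE 0.08, adjusted p = 0.00644) in MYBup and 0.25 (SE 0.08, adjusted p = 0.0302) in mock, the plasmid lines again above wt. Cdc25c was called in MYBup and not in mock (0.31, SE 0.10, adjusted p = 0.0221; in mock 0.07, SE 0.10, adjusted p = 0.615). Cdca3 had 65.0, 59.4 and 57.4 CPM in MYBup, 71.8, 85.0 and 59.4 in mock, 50.3, 40.1 and 43.0 in lung3 and 60.1, 51.7 and 51.5 in wt libraries. It rose in mock (0.40, SE 0.12, adjusted p = 0.0212) and was not called in MYBup (0.15, SE 0.12, adjusted p = 0.349), though mock replicate 3 overlapped wt. Ccna2, Cenpe and Dlgap5 fell in mock, with log2 fold changes of -0.25 (SE 0.07, adjusted p = 0.0147), -0.42 (SE 0.15, adjusted p = 0.0391) and -0.30 (SE 0.07, adjusted p = 0.00301), and were not called in MYBup (-0.11, -0.18 and -0.07). Ccna2 had 539, 522 and 507 CPM in MYBup, 454, 507 and 459 in mock, 574, 616 and 568 in lung3 and 547, 581 and 559 in wt libraries, and its exons overlap those of Exosc9 by 510 bases. Of the 13 calls in mock against wt 3 (Ccnb2, Mad2l1 and Ect2) held under every alternative tried, and of the 18 in MYBup against wt 10 did. Without mock replicate 1, wt replicate 1 or wt replicate 2 the number of calls in mock against wt was 8, 8 and 6, and without MYBup replicate 1 that in MYBup against wt was 12. The same fits called 3246, 3084 and 3108 of all genes in mock against wt and 3539 in MYBup against wt. Ccna2, Cenpe and Ect2 lie on chromosome 3, where the median of all tested genes in mock against wt was -0.23, and Dlgap5 on chromosome 14, where it was -0.34. In the centred fit the calls of Ccna2 and Cenpe ended, at -0.02 (adjusted p = 0.808) and -0.20 (adjusted p = 0.313), and Dlgap5 turned to 0.03 (adjusted p = 0.708). Ect2 kept its call at -0.24 (adjusted p = 0.0441). The calls of Cenpa and Cdca3 in mock ended as well, at 0.13 (adjusted p = 0.26) and 0.24 (adjusted p = 0.13), while Ccnb2 was at 0.24 (adjusted p = 0.0312). Of the 20 genes with longer exons 2 rose and 6 fell in mock against wt, and of the 20 with shorter exons 4 rose and 1 fell, a difference that was not tested.

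In lung3 against wt, the comparison of cells selected in the lung with unpassaged cells, no member was called in the main fit. That fit has no term for pairs of libraries. The edgeR test called 0 of 40 genes (4 had an unadjusted p under 0.05), limma voom 0 and DESeq2 0, against 5.36% of all genes (2.91% higher, 2.44% lower). The median log2 fold change was -0.02 over the 40 genes and 0.00 over all genes. All 40 intervals at 95% lay within 1.5-fold in either direction. The outermost bounds were -0.56 for Cdca3 and 0.44 for Cenpe on the log2 scale. The lowest adjusted p was that of Ccnb2 at 0.125, with a log2 fold change of -0.22 and lung3 values below wt values without overlap. Groups did not overlap for 5 higher and 7 lower genes, against 14% and 13.4% of all genes. In a fit of the 6 libraries with the replicate number as a block, chosen after the data were seen, 3 genes fell. They were Ccnb2 by 0.22 (adjusted p = 0.0263), Ube2c by 0.24 (adjusted p = 0.0258) and Cdca3 by 0.29 (adjusted p = 0.0142), and that fit called 1985 of all genes.

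The genes that fell in MYBup were not called in lung3. Foxm1 averaged 165 ± 2.42 CPM in lung3 and 182 ± 6.48 CPM in wt (SD, n = 3 each), with a log2 change of -0.14 (SE 0.07, adjusted p = 0.264). Mad2l1 averaged 108 ± 6.05 CPM in lung3 and 121 ± 1.28 CPM in wt (-0.15, SE 0.07, adjusted p = 0.232). In both genes the lung3 values lay below the wt values without overlap, by less than the test required. Hmmr averaged 202 ± 19.3 CPM in lung3 and 176 ± 5.32 CPM in wt (0.20, SE 0.10, adjusted p = 0.253), and Prc1 322 ± 7.53 CPM in lung3 and 310.5 ± 1.96 CPM in wt (0.05, SE 0.06, adjusted p = 0.669). Ube2c had 162, 138 and 144 CPM in lung3 and 183, 152 and 193 CPM in wt libraries, with lung3 and wt overlapping (-0.25, SE 0.12, adjusted p = 0.271). Cdca3 averaged 44.5 ± 5.25 CPM in lung3 and 54.4 ± 4.89 CPM in wt (-0.29, SE 0.13, adjusted p = 0.208). Lin9 and Lin54 had log2 fold changes of -0.02 and 0.01, and Cdk1, Plk1, Ccnb1 and Top2a of -0.04, -0.04, 0.05 and -0.06.

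The effects in the selected and the transfected cells were compared in 1 contrast, MYBup minus mock less lung3 minus wt, which share no library. It called 6 of 40 genes, 6 lower and 0 higher, against 19.9% of all genes (9.52% lower, 10.4% higher). They were Mad2l1, Hmmr, Lin54, Foxm1, Prc1 and Cdc25b. The difference was -0.51 (SE 0.10, adjusted p = 0.00338) for Mad2l1, -0.51 (SE 0.14, adjusted p = 0.018) for Hmmr and -0.48 (SE 0.16, adjusted p = 0.0479) for Lin54. It was -0.40 (SE 0.10, adjusted p = 0.0117) for Foxm1, -0.40 (SE 0.08, adjusted p = 0.00501) for Prc1 and -0.38 (SE 0.11, adjusted p = 0.0296) for Cdc25b. For Mad2l1 and Foxm1 both effects were below 0 and that of MYBup was the larger in size. For the other 4 the lung3 value was above 0 and not called. No gene of the set met the study's own search in the main fit, where 0 were called in lung3 against wt. That search asks for a call in one direction in MYBup against mock and in the other in lung3 against wt. Ccnb2, Ube2c and Cdca3, called in the blocked fit of lung3 and wt, were not called in MYBup against mock. The differences of Mad2l1 and Foxm1 held under all 18 alternatives, and that of Lin54 under 6.

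Genes around this set showed a mixed picture in MYBup against mock. The counts that follow stand against 14.3% higher and 12.6% lower of all genes, and many lie near these shares. Of 11 other genes of the B-Myb-MuvB and DREAM complexes 0 rose and 3 fell. They were Rbl2, the pocket protein p130 (-0.51, adjusted p = 0.00445), and the E2F partners Tfdp2 (-0.35, adjusted p = 0.0115) and Tfdp1 (-0.22, adjusted p = 0.0316). Exons of Rbl2 overlap those of Aktip by 693 bases. Mybl2 itself, the gene of B-Myb, had a log2 fold change of 0.03 (adjusted p = 0.82), and Mybl1 of -0.41 (adjusted p = 0.0565). Against wt Mybl2 was lower in both plasmid lines, with log2 fold changes of -0.22 in MYBup (adjusted p = 0.0489) and -0.25 in mock (adjusted p = 0.0298). Of 17 further regulators of mitotic entry 5 rose and 2 fell. Bora, which activates Plk1 through Aurora A (0.57), the mitotic kinase gene Pbk (0.39) and the checkpoint kinase gene Chek1 (0.39) rose, and Wee1, which inhibits CDK1 (-0.46), fell.

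Of 38 further kinetochore and checkpoint genes 3 rose and 7 fell in MYBup against mock. Cenpk, of the inner kinetochore (-0.55), and Zwilch (-0.55) and Zw10 (-0.38), both of the complex that brings dynein to kinetochores, fell, while Mad2l2 (0.50), a relative of Mad2 in DNA repair, rose. Exons of Cenpk overlap those of Ppwd1 by 233 bases and those of Zwilch overlap Lctl by 254. Of 16 genes of the anaphase-promoting complex 0 were called in edgeR (5 had an unadjusted p under 0.05). Of 18 condensin, cohesin and separase genes 0 rose and 1, the cohesin subunit gene Smc3, fell (-0.23). Of 38 other spindle and cytokinesis genes 6 rose and 5 fell, among them Psrc1 (0.82), Shcbp1 (0.52) and Ccnb1ip1 (0.52; exons shared with Rpph1 over 233 bases), which rose. Cep55, needed for the final cut between daughter cells (-0.48), fell. Of 30 genes of G1/S and DNA replication 8 rose and 3 fell. Cdt1, which loads replication origins (0.68), and E2f2 (0.55) rose, and Pola1, the catalytic subunit of DNA polymerase alpha (-1.02), and Ccne1, the gene of cyclin E1 (-0.64), fell. Of 10 tested CDK inhibitors and growth arrest genes 2 rose, Rb1 (0.55; exons shared with Rcbtb2 over 488 bases) and Cdkn2c (0.42), and 0 fell. Several of the genes that rose lie on chromosomes whose median was above 0 in this comparison. Bora, Pbk, Ccnb1ip1 and Rb1 lie on chromosome 14 (median 0.30), Shcbp1 and Cdt1 on chromosome 8 (0.26) and Psrc1 on chromosome 3 (0.24) before centring. With each library centred per chromosome the calls of Pbk, Ccnb1ip1, Rb1, Tfdp2, Wee1, Zw10 and Smc3 ended, and those of the other list genes named here remained. That fit called 2 higher and 1 lower of the regulators of mitotic entry, 3 and 6 of the kinetochore genes, 2 and 3 of the other spindle genes and 6 and 2 of the G1/S genes, against 20.9% of all genes in either direction. In the fit of the 6 libraries with a replicate block, the DREAM list had 0 calls and the kinetochore list 0 higher and 2 lower, with 13.3% of all genes called. The median log2 fold changes of these lists lay between -0.09 for the B-Myb-MuvB and DREAM genes and 0.05 for the regulators of mitotic entry.

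In lung3 against wt 5.36% of all genes were called, which sets the level for these small lists. In edgeR 0 genes were called among the regulators of mitotic entry, the kinetochore, anaphase-promoting complex, condensin and cohesin, other spindle and G1/S lists, where 0, 6, 2, 0, 4 and 6 genes had an unadjusted p under 0.05. Rbl2 (-0.45, adjusted p = 0.0355) and Tfdp2 (-0.45, adjusted p = 0.0133) fell among the DREAM genes, and Cdkn1b, the gene of the CDK inhibitor p27 (-0.48, adjusted p = 0.00676), among the growth arrest genes. In the fit of the 6 libraries with the replicate number as a block, which called 17.9% of all genes, 0 rose and 3 fell of the kinetochore, other spindle and G1/S lists each. There 0 rose and 2 fell of the anaphase-promoting complex and of the DREAM genes, 2 rose and 2 fell of the growth arrest genes, and 0 were called among regulators of mitotic entry and condensin and cohesin. The blocked and centred fits of these lists were added after the data were seen. Hjurp stands in both the kinetochore and the other spindle list and is counted among the genes that fell in each. Of the G1/S genes 24 of 30 (80%) had a value below 0, against 49.8% of all genes, with a median of -0.11. Myb was lower in lung3 than in wt, with a log2 fold change of -0.89, adjusted p = 0.0159.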

How the data were processed

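Per the labels' protocols, RNA from 12 samples of 4T1 cells was purified on columns and made into Illumina TruSeq libraries. The authors deposited 1 table of raw, unnormalised read counts for all libraries. The 2708 values with over 4 digits are rounded there to 4 significant digits. STAR, edgeR and build GRCm38 are named in the submitters' processing notes. Which counter, gene models and strand mode were used is not given in the sources used here. No per-sample column was left unused (0). Of 22880 features 22570 matched GENCODE M21, which gave symbols, coordinates (1-based, GRCm38) and exon lengths.

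Tests used R 4.3.3 with edgeR 4.0.16: TMM factors, filterByExpr, all 12 libraries in 1 quasi-likelihood fit with a term per group. P-values were adjusted by Benjamini-Hochberg across 11291 genes, and calls need an adjusted p of 0.05 or less. CPM and RPKM use the TMM factors, and SE values come from the fold change and the F statistic. In the centred alternative each library was offset by the median log ratio of each chromosome's tested genes. DESeq2 1.42.0 and limma 3.58.1 were alternatives, as were RLE factors, leaving out the filter or any single library, a block for replicate number, and fits of only the groups compared. The test was checked on simulated counts of MYBup against mock, with changes of known size put in. It recovered 8% of the changed genes when the size was 1.25-fold. At 1.5-fold the share was 48%, at 2-fold it was 82%, and at 4-fold it reached 100%. These shares belong to the simulated counts and were not worked out for the genes of G2 and mitosis. In the real test of MYBup against mock, Dlgap5 (log2 fold change 0.23) and Lin9 (-0.24) were called at less than 1.25-fold. Cenpe (0.25) and Cdca3 (-0.25) were not called there. A gene that was not called may still have changed by a small amount. Figures used Python 3.11.15 with matplotlib 3.10.9. Replicates differed by more than sampling noise (chi-square per gene 2.24 to 36.1), so none was merged. Without molecular identifiers, reads cannot be taken as independent molecules.

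The members and gene lists were chosen with earlier results of these data known. Values per library are given for members called in any of the 4 comparisons and for Cdk1, Ccnb1, Plk1, Aurkb, Top2a, Foxm1, Lin9 and Lin54, and of each other list up to 4 called genes with the largest change are named. Cenpf and Ube2c were added after their values were seen. Upstream stretches of 250 bases had been planned for print; since the hexamers lay beside the start, windows of 30 bases were chosen after the promoters were seen. A further window is not reported here.

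Whether replicate numbers pair libraries was checked from the correlation of their deviations within groups. With equal numbers it was 0.294 to 0.329 between lung3 and wt libraries, and with unlike numbers -0.212 to -0.093. A fit of the lung3 and wt libraries with a replicate block was therefore added, from the data and not from the labels. The main fit has no term for pairs. Deviations within a group cancel out by construction, so correlations of opposite sign are partly built in. For MYBup and mock the ranges were -0.496 to 0.382 and -0.541 to 0.636, and no pairing was taken.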

Additional observations from a re-analysis of the deposited data

Results flagged for a closer look

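The change in MYBup against mock differed from the change in lung3 against wt for 6 of the 40 genes, by edgeR's test of the difference itself (adjusted p at most 0.05, all 12 libraries). On the log2 scale the difference, MYBup effect less lung3 effect, was -0.5129 for Mad2l1 (adjusted p = 0.00338), -0.5109 for Hmmr (0.018), -0.4783 for Lin54 (0.0479), -0.4046 for Foxm1 (0.0117), -0.402 for Prc1 (0.00501) and -0.3795 for Cdc25b (0.0296). The share of all tested genes with such a difference was 19.9%. The difference of Lin54 was no longer called in 12 of 18 alternatives, that of Cdc25b in 6, that of Hmmr in 2 and that of Prc1 in 1. Hmmr and Lin54 passed the threshold neither when centred per chromosome nor without wt replicate 1.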

How the results depend on the processing

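For MYBup against mock, 12 of the 40 genes became 7 when centred per chromosome, a fit that called 2355 of all genes in place of 3038. The number was 2, Mad2l1 and Foxm1, in a fit of the 6 libraries with a replicate block, which called 1479 of all genes. Mad2l1 and Foxm1 were the only calls in MYBup against mock that held under all 20 alternatives. The calls of Cdc25b, Lin54 and Cdca8 held under 19 and ended only in that blocked fit, though no pairing was taken for these groups. For lung3 against wt, 0 became 3 in the fit of 6 libraries with a replicate block, which called 1985 of all genes in place of 605, and DESeq2 called 919. Leaving out 1 library gave 237 to 853, with 237 without wt replicate 1, 268 without wt replicate 2 and 294 without lung3 replicate 2. For mock against wt, 13 became 7 in the fit of the 6 libraries and 5 when centred per chromosome, and leaving out 1 library gave 6 to 15. Those fits called 3295 and 3373 of all genes in place of 4056, and 3084 to 4127 with 1 library left out. Both blocked fits of 6 libraries were added after the data were seen. The value of Dlgap5 reversed when centred per chromosome, to -0.0542 in MYBup against mock and 0.0342 in mock against wt. The cause of these shifts was not tested. With a replicate block in all 12 libraries the 40 genes had 11, 0, 11 and 18 calls in MYBup against mock, lung3 against wt, mock against wt and MYBup against wt. In the same order that fit called 2991, 565, 3999 and 4231 of all genes. Among single genes 144 values under an alternative passed the threshold no longer and 31 newly passed it. The difference between the effects already uses all 12 libraries, so it has no fit on fewer groups. Groups of 3 limit the precision: the 95% intervals in lung3 against wt reached -0.56 and 0.44.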

Other observations

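The following genes of the pathway lists were chosen after their values were seen. Against wt, Mki67, the proliferation antigen Ki-67, averaged 466 ± 74.5 CPM in MYBup and 773 ± 77.4 CPM in wt (SD, n = 3 each), with an edgeR log2 fold change of -0.73 (adjusted p = 0.00551). Mock averaged 571 ± 141 CPM, and neither comparison with mock was called (mock against wt -0.44, adjusted p = 0.0652; MYBup against mock -0.29, adjusted p = 0.233). Cdkn2c, the gene of the CDK inhibitor p18, averaged 174 ± 14.2 CPM in MYBup and 86.3 ± 4.46 CPM in wt, a log2 fold change of 1.01 (adjusted p = 3.56e-06). Mock averaged 130.3 ± 13.6 CPM, with a log2 fold change against wt of 0.59 (adjusted p = 0.000233). Of the 10 tested genes of its list, CDK inhibitors and growth arrest, 1 was called higher in MYBup against wt, Cdkn2c, and 3 were called lower. In mock against wt 3 of that list were called higher and 2 lower. E2f4, the E2F of DREAM, averaged 88.2 ± 5.06 CPM in MYBup and 146 ± 7.85 CPM in wt (log2 fold change -0.73, adjusted p = 4.92e-05). In mock it averaged 95.2 ± 11.2 CPM, a log2 fold change of -0.62 against wt (adjusted p = 0.000171), and MYBup against mock was not called (-0.11, adjusted p = 0.381). Centred per chromosome, E2f4 was called in MYBup against mock (-0.34, adjusted p = 0.00972). It lies on chromosome 8, where the median of all tested genes before centring was 0.255 in MYBup against mock and -0.30 in mock against wt. In MYBup against wt 38.2% and in mock against wt 35.9% of all tested genes were called.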
